A study of Mus musculus with 20 samples.

Results

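The comparison is between type 2 multipotent progenitors (MPP2) and long-term haematopoietic stem cells (LT-HSC), both taken from mice that lack Hopx. KO MPP2 has 3 libraries and KO LT-HSC has 3, so the comparison uses 6 of the 20 libraries of the series. Of 45706 gene identifiers, 17160 passed the filter on low values and were tested. Libraries were assigned by the labels, which give genotype and sorted population. All animals were C57BL/6, aged 8 weeks, and all 6 libraries carry the same Hopx-knockout genotype, whose design the labels leave unstated. WT MPP2 (3 libraries), WT LT-HSC (4 libraries) and KO MPP3 (3 libraries) serve for side-by-side values. The labels do not say which surface antigens were used in the sort, or whether each library came from a separate animal. The p-values therefore measure the spread between libraries, which may be technical. In the main fit that spread was shared over 6 groups and all 20 libraries of the series.

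As background, LT-HSC sit at the top of blood formation, divide rarely and can rebuild the whole system after transplantation. MPP2 are their short-lived, more actively dividing offspring, known for giving rise mainly to megakaryocytes and red cells. HOPX, the protein missing from all 6 libraries, has a homeodomain but lacks DNA binding of its own and works through partners such as serum response factor.

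The Hopx transcript was at 0 reads in all 3 KO MPP2 and all 3 KO LT-HSC libraries. Scaled reads are deposited reads divided by a size factor. On this scale Hopx ran up to 61.2 in WT MPP2, with its lowest value, from 11 reads, in WT MPP2 replicate 2, and up to 58.9 in WT LT-HSC, but the library labelled WT LT-HSC replicate 4 also had 0 reads. Hopx therefore does not bear out the label of that library, though genes at such low values can lack reads in a single library. Its genotype was not tested further. Counts of WT calls are given with and without that library. WT log2 differences of single genes include it. Depth was alike, with 13933069 to 15189909 gene-assigned reads in KO MPP2 and 12094117 to 14640726 in KO LT-HSC. Genes with at least 1 read numbered 16220, 18161 and 14931 in KO MPP2 replicates 1, 2 and 3, against 17609, 17721 and 18627 in KO LT-HSC replicates 1, 2 and 3. Among the 3043 genes with a mean value of 50 to 200 over all libraries, 9.56%, 1.68% and 20.7% had no read in KO MPP2 replicates 1, 2 and 3, against 4.77%, 2.99% and 2.07% in the KO LT-HSC libraries. KO MPP2 replicates 1 and 3 therefore missed more genes than the other 4 libraries at a like number of reads, and KO MPP2 replicate 3 lay farthest out of the 6 on the first principal component, which held 20.2% of the variance over 20 libraries. Xist and Y-linked transcripts were those of 2 females and 1 male in either group. The 20 mature neutrophil genes summed to 1529, 1859 and 2811 scaled reads in KO MPP2, against 28909 in KO LT-HSC replicate 1 and 1553 and 2953 in KO LT-HSC replicates 2 and 3. The 19 B cell and plasma cell genes likewise summed to 727 to 1137 in KO MPP2, against 6464 in KO LT-HSC replicate 1 and 581 and 741 in KO LT-HSC replicates 2 and 3. KO LT-HSC replicate 1 was thus the highest of the 6 for both lists, and the part of these transcripts in the results was not tested. Values without that library stand beside the genes concerned. WT MPP2 replicate 3 stood apart, with 590880 scaled reads of B cell and plasma cell genes and 211398 of early lymphoid genes, against 671 to 838 and 4868 to 4992 in WT MPP2 replicates 1 and 2. These WT libraries enter the KO comparison through the shared spread, and 30 genes were called higher and 252 lower in KO MPP2 without WT MPP2 replicate 3, and 14 and 139 with the library labelled WT LT-HSC replicate 4 left out.

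**Figure D1:**
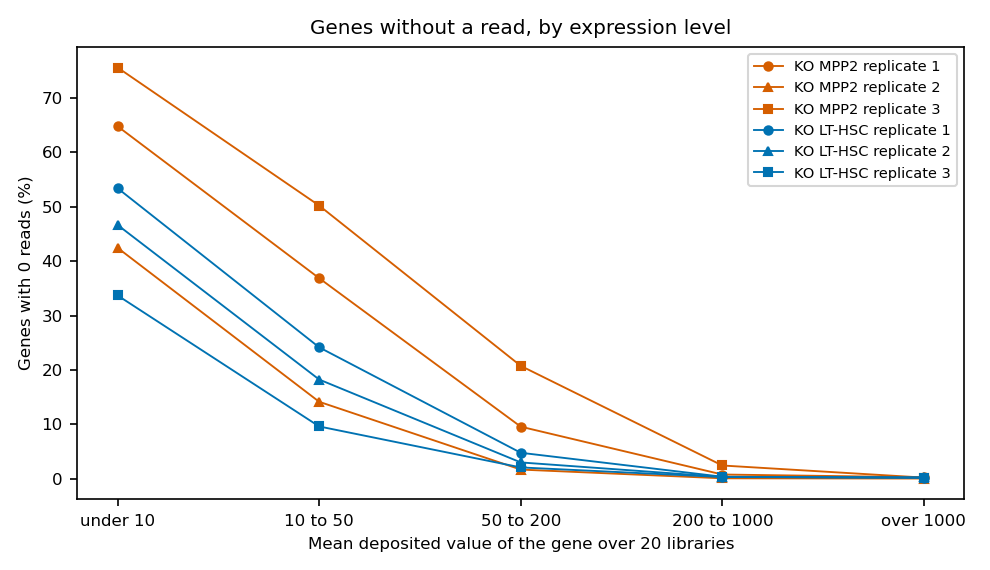
Percentage of tested genes with 0 reads (vertical axis) in bins of mean deposited value over 20 libraries (horizontal axis), for each KO MPP2 (orange) and KO LT-HSC (blue) library. At a mean value of 50 to 200, KO MPP2 replicates 1 and 3 are at 9.56% and 20.7%, and KO MPP2 replicate 2 is at 1.68%, below the 2.07% to 4.77% of the KO LT-HSC libraries.

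Of 46 mitosis and kinetochore genes, 2 rose in KO MPP2, the DNA topoisomerase gene Top2a at 2.80 times and the condensin subunit gene Smc2 at 2.05 times the KO LT-HSC mean. The stem-cell genes Procr, Fgd5, Sult1a1, Ifitm1, Esam and Mllt3 fell, 6 called of 30 on that list, and Fgd5 had no read at all in KO MPP2. In bulk libraries such as these, fewer cells of a type and less RNA per cell cannot be told apart. With limma and Benjamini-Hochberg adjustment over 17160 genes at a threshold of 0.05, 20 genes were called higher in KO MPP2 (0.117% of those tested) and 186 lower (1.08%). These calls rest on the spread shared over all 20 libraries, and a limma fit of the 6 libraries alone called 0 higher and 0 lower. The median log2 difference was 1.85 for the 20 and -4.96 for the 186, against -0.13 for all genes tested; with genes at 0 reads set at their bound, the median of the 186 was -4.98. At an unadjusted p under 0.05, 794 genes were higher and 2161 lower. Groups did not overlap for 1166 genes with all KO MPP2 libraries above (6.79%) and for 1785 genes with all below (10.4%), and these included 20 of the 20 and 185 of the 186 called. Of the genes called lower, 43 had 0 reads in all 3 KO MPP2 libraries, and 0 had 0 reads in all 3 KO LT-HSC libraries.

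**Figure D2:**
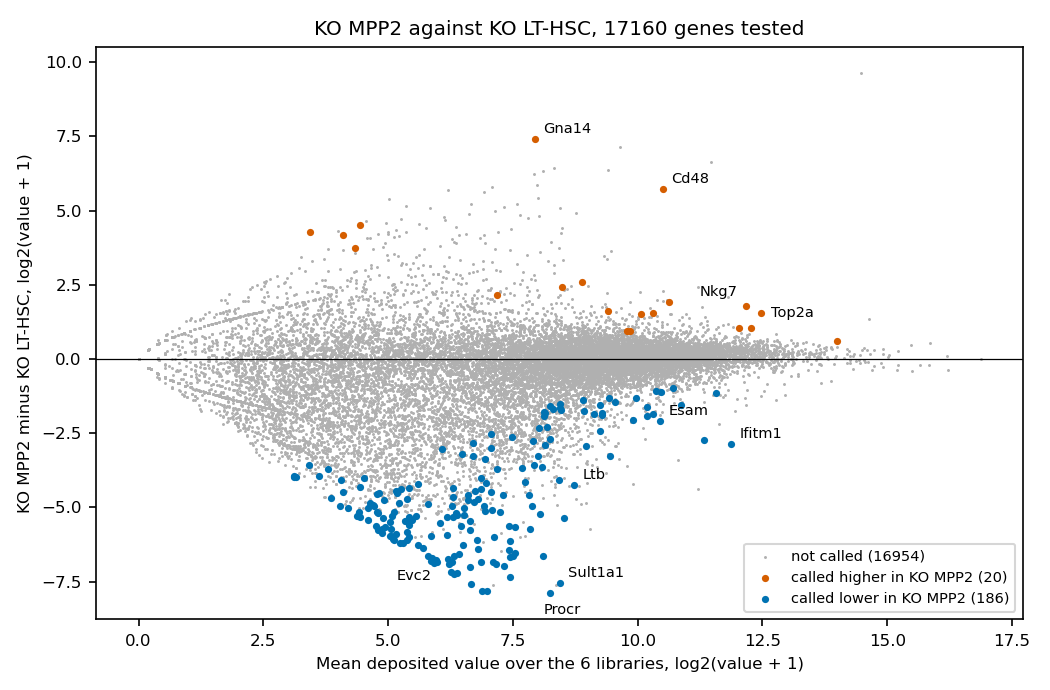
Difference of mean log2(value + 1), KO MPP2 minus KO LT-HSC (vertical axis), against the mean deposited value of the 6 libraries on a log2 scale (horizontal axis), 1 point a gene, with called genes in orange (20 higher) and blue (186 lower). The lower genes lie mostly at low mean values, with a median mean value of 96.1.

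The counts moved with single libraries. Called genes numbered 16 higher and 114 lower without KO MPP2 replicate 1, 67 and 796 without KO MPP2 replicate 2, and 12 and 86 without KO MPP2 replicate 3. They numbered 3 and 51 without KO LT-HSC replicate 1, 11 and 108 without KO LT-HSC replicate 2, and 14 and 57 without KO LT-HSC replicate 3. Without KO MPP3 replicate 3, which enters only through the shared spread, 12 and 137 were called. With KO MPP2 replicate 2 as the single KO MPP2 library, 6 genes were called higher and 5 lower, of which 2 and 3 were among the 20 and 186. Of 45 named genes called, 27, 39 and 25 were still called without KO MPP2 replicates 1, 2 and 3 in turn, and 16, 24 and 22 without KO LT-HSC replicates 1, 2 and 3. Where 1 library is named beside a gene in what follows, leaving out other libraries could end the call too. The edgeR quasi-likelihood test on recovered reads called 0 genes higher, with 879 at an unadjusted p under 0.05, and 5 lower, namely Ifitm1, Sult1a1, Nfkbiz, Evc2 and Coq8a, the last named after its values were seen. DESeq2 called 176 higher and 509 lower, and a fit with the run of library numbers as covariate 76 and 287. Within the libraries numbered 115 to 120, which hold 1 library of each group, the median log2 difference was 1.68 for the 20 genes and -3.15 for the 186. Within the libraries numbered 101 to 106, 1 of KO MPP2 and 2 of KO LT-HSC, it was 1.82 and -5.58, in directions that the calls had fixed. Library numbers are those in the titles, and what they stand for is not given there; KO MPP2 replicate 3 is numbered 88 and has no KO LT-HSC library near it. Of the 186, 93 had a read in KO MPP2 replicate 1, 135 in KO MPP2 replicate 2 and 72 in KO MPP2 replicate 3, against 186 in each KO LT-HSC library, and the part of missed genes in the calls was not tested.

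Among 53 gene lists, 12 had a member called lower and 4 a member called higher. By count, the HSC identity list, of genes known to mark stem cells, had the most called lower. By share it did not lead, as 3 of 8 GIMAP genes were called lower. Lists can share members, such as Procr and Esam. Of 30 HSC identity genes tested, 6 fell, 0 rose, and the log2 difference was below 0 in 28, with a median of -2.24. Over all genes tested 1.08% were called lower and 57.2% lay below 0. All 3 KO MPP2 libraries were below all 3 KO LT-HSC libraries for 20 of the 30, or 66.7%, against 10.4% of all genes. The number called lower was 3 to 10 with 1 library left out, and over all fits it ran from 0 with the 6 libraries alone and 2 by edgeR to 14 by DESeq2. The 2 members above 0 were Vwf, the carrier of clotting factor VIII, at 0.27, and Gstm5, a glutathione transferase, at 0.23. The summed level of the list was 28067, 20974 and 22939 scaled reads in KO MPP2, against 54723, 53360 and 63824 in KO LT-HSC.

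Procr, the endothelial protein C receptor and a widely used LT-HSC surface marker, had 0, 9.77 and 0 scaled reads in KO MPP2, against 500, 277 and 1029 in KO LT-HSC. Procr was close to absent in every KO MPP2 library and clearly present in every KO LT-HSC library, and the log2 difference was -7.89 ± 1.41 (SE, adjusted p = 0.0111, limma). Without KO LT-HSC replicate 3 its adjusted p was 0.0555. Fgd5, an exchange factor for the small GTPase Cdc42 that is used as a stem-cell reporter locus, had 0 reads in each KO MPP2 library, against 123, 254 and 221 in KO LT-HSC. It was at least 212-fold lower, taking 3 reads over the group as the floor (adjusted p = 0.0116). That bound covers counting error only, and KO MPP2 replicates 1 and 3 had no read in 9.56% and 20.7% of genes at 50 to 200. In WT, Fgd5 had 47.2, 0 and 86.2 in MPP2, against 174, 304, 247 and 472 in LT-HSC. Both markers thus had next to no reads in KO MPP2. Sult1a1, a phenol sulfotransferase, had 0.953, 19.5 and 0 in KO MPP2, against 1051, 531 and 480 in KO LT-HSC (log2 difference -7.56 ± 1.04, adjusted p = 0.00268). Ifitm1, an interferon-induced membrane protein, was well detected in both groups, at 545, 997 and 1281 in KO MPP2, against 6980, 4961 and 7793 in KO LT-HSC. Its log2 difference was -2.86 ± 0.38 (adjusted p = 0.00236), and the edgeR adjusted p was 0.0229. Esam and Mllt3 were also detected in every library, with smaller differences and no overlap. Esam, an adhesion molecule of endothelium and stem cells, had 742, 415 and 487 in KO MPP2, against 2046, 2328 and 2403 in KO LT-HSC (log2 difference -2.08, adjusted p = 0.0398). Mllt3, a chromatin reader linked to the super elongation complex, had 378, 313 and 394 in KO MPP2, against 1002, 1604 and 2079 in KO LT-HSC (log2 difference -2.05, adjusted p = 0.0449). The calls of Fgd5, Sult1a1 and Ifitm1 held in 16 of 16 fits that left out 1 library, whereas those of Esam and Mllt3 held in 5 and 4 of 16, with adjusted p up to 0.113 without KO LT-HSC replicate 1 and 0.143 without KO LT-HSC replicate 3.

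Several classical stem-cell regulators did not pass although their groups did not overlap. The zinc-finger factor Mecom had 110, 203 and 244 in KO MPP2, against 1086, 799 and 1455 in KO LT-HSC (log2 difference -2.61, adjusted p = 0.0636). Hlf, a PAR-type leucine zipper factor, had 125, 383 and 526 in KO MPP2, against 2090, 1414 and 2299 in KO LT-HSC (log2 difference -2.69, adjusted p = 0.0803). Ly6a, which encodes Sca-1, had 107, 172 and 121 in KO MPP2, against 1225, 950 and 1510 in KO LT-HSC (log2 difference -3.20, adjusted p = 0.0901). In these 3 genes the highest KO MPP2 library stayed below the lowest KO LT-HSC library by a wide margin. Cdkn1c, the p57 inhibitor of cyclin-dependent kinases, had 93.3, 35.5 and 62.9 in KO MPP2, against 233, 216 and 515 in KO LT-HSC (log2 difference -2.30, adjusted p = 0.0981). Among surface antigen genes commonly used in sorting stem cells and progenitors, Cd48 was called, and Ly6a, Slamf1, Kit and Cd34 were not. Slamf1, the gene of CD150, did not separate the groups, with 933, 590 and 446 in KO MPP2 and 742, 1076 and 1246 in KO LT-HSC (adjusted p = 0.814). Kit, the stem cell factor receptor gene, had 1656, 2222 and 3135 in KO MPP2, against 3022, 3437 and 3516 in KO LT-HSC, with 1 KO MPP2 library inside the KO LT-HSC range (log2 difference -0.55, adjusted p = 0.287). Cd34 had a log2 difference of -0.31 (adjusted p = 0.854).

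The other genes with the lowest differences were mostly absent from KO MPP2 and present at low values in KO LT-HSC. Evc2, a ciliary protein of Hedgehog signalling, had 0 reads in each KO MPP2 library, against 132, 103 and 217 in KO LT-HSC, and was at least 160-fold lower with the smallest adjusted p of all genes (7.51e-05). Chrnb1, a subunit of the muscle acetylcholine receptor, had 0 reads in KO MPP2, against 176, 155 and 423 in KO LT-HSC, at least 267-fold lower (adjusted p = 0.00722). The tight-junction gene Ocln had 0 reads in KO MPP2, against 213, 95.7 and 166 in KO LT-HSC, at least 168-fold lower (adjusted p = 0.00722). These 3 calls held in 16 of 16 fits with a library left out. Runx1t1, the corepressor ETO, had 0, 9.77 and 0 in KO MPP2, against 301, 159 and 346 in KO LT-HSC (log2 difference -6.86, adjusted p = 0.00541). Among the lowest 15 were also Hid1, Apbb1, Mamdc2, Osgin1, Nrk and F830016B08Rik, with adjusted p from 0.0116 to 0.047, and each of the 6 lost its call without KO LT-HSC replicate 1, at an adjusted p of up to 0.117. F830016B08Rik was called in 5 of the 16 fits with a library left out. Rora, a nuclear receptor that drives clock gene transcription, had 0, 7.99 and 0 in KO MPP2, against 464, 127 and 258 in KO LT-HSC (log2 difference -6.90, adjusted p = 0.0336). Without KO LT-HSC replicate 1 the adjusted p of Rora was 0.121.

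**Figure D3:**
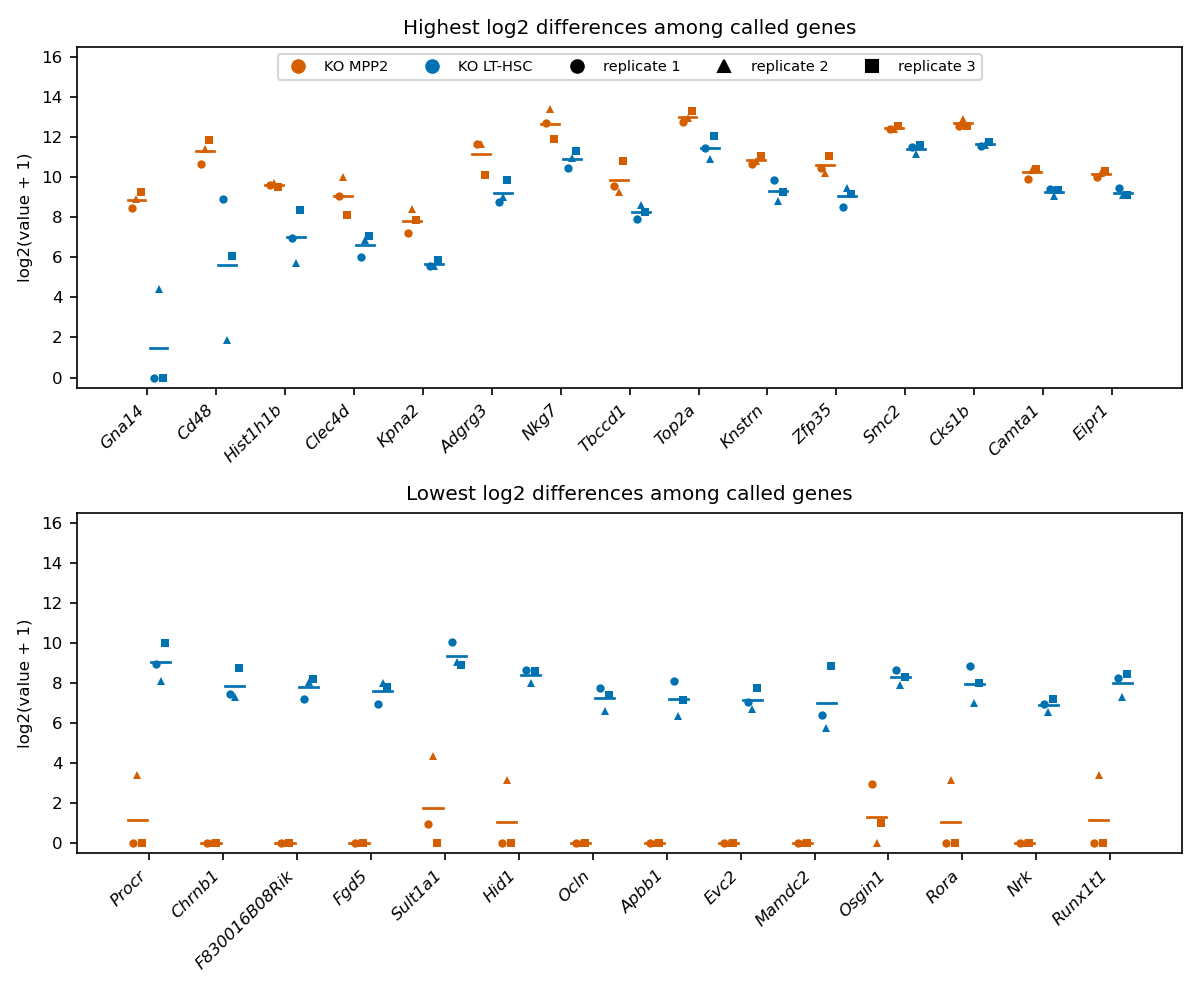
Deposited values on a log2(value + 1) scale for the 15 called protein-coding genes with the highest (upper panel) and 14 of the 15 with the lowest (lower panel) log2 differences among those with a mean value of at least 50 and no overlap; KO MPP2 in orange at the left of each gene, KO LT-HSC in blue, symbols for replicates and bars for means. In the lower panel, most KO MPP2 points lie at 0 reads and every KO LT-HSC point lies above.

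Surface and signalling genes shared by stem cells and endothelium also ran lower. Of 18 endothelial-type surface genes, 3 fell (Procr, Esam and Jam3), 0 rose, and 17 lay below 0, with a median of -1.75, against 1.08% called lower and 57.2% below 0 among all genes. Jam3, a junctional adhesion molecule, had 0.953, 21.3 and 0 in KO MPP2, against 413, 327 and 322 in KO LT-HSC (log2 difference -6.65, adjusted p = 0.0339, and 0.117 without KO MPP2 replicate 3). Of 17 Hox genes and cofactors, 0 passed, with a median of -1.55. All 8 GIMAP genes, small GTPases of lymphocyte and stem-cell survival, lay below 0 with a median of -2.57, and 3 fell. Gimap5 had 292, 167 and 356 in KO MPP2, against 1119, 927 and 861 in KO LT-HSC (log2 difference -1.89, adjusted p = 0.0339). Gimap6 and Gimap8 had log2 differences of -2.74 and -5.62 (adjusted p = 0.0477 and 0.0159). These calls depended on single libraries: the adjusted p of Gimap6 was 0.158 without KO MPP2 replicate 3, and without KO LT-HSC replicate 1 the adjusted p of Gimap5, Gimap6 and Gimap8 was 0.125, 0.147 and 0.0729, and 0 of the 8 were called.

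Few immediate early, NF-kB and interferon genes were called, and most lay below 0. Among all genes tested, 1.08% were called lower and 57.2% lay below 0. Of 25 immediate early genes, 24 lay below 0 with a median of -1.23, and 1 fell: Gadd45b, a stress-induced growth-arrest gene, had 64.8, 76.4 and 48.1 in KO MPP2, against 719, 509 and 276 in KO LT-HSC (log2 difference -2.89, adjusted p = 0.01). Without KO LT-HSC replicate 1 its adjusted p was 0.0713. Of 23 TNF and NF-kB genes, 2 fell and 16 lay below 0, with a median of -0.80. Nfkbiz, an inhibitor-like regulator of NF-kB, had 49.5, 47.1 and 20.6 in KO MPP2, against 795, 323 and 388 in KO LT-HSC (log2 difference -3.63, adjusted p = 0.00281, edgeR 0.0293). Ltb, the lymphotoxin beta subunit, had 16.2, 63.1 and 58.0 in KO MPP2, against 1134, 570 and 706 in KO LT-HSC (log2 difference -4.26, adjusted p = 0.00538). Of 39 interferon response genes, 36 lay below 0 with a median of -0.81, and Ifitm1 was the 1 called. Single members of other lists fell too. The secreted Wnt antagonist Sfrp1 had 0 reads in KO MPP2, against 64.3, 71.1 and 67.2 in KO LT-HSC, at least 71.8-fold lower (adjusted p = 0.00158). All 3 KO LT-HSC libraries were close to each other for Sfrp1. The bounds of Sfrp1 and of Snrpn, which follows, cover counting error only. The imprinted gene Snrpn, which shares its locus with Snurf so that counting may split their reads, had 0 reads in KO MPP2, against a mean of 27.1 ± 15.3 in KO LT-HSC (SD, n = 3), at least 28.8-fold lower (adjusted p = 0.00619, limma). Gsta4, a glutathione transferase, had 0, 17.8 and 0 in KO MPP2, against 129, 88.7 and 153 in KO LT-HSC (adjusted p = 0.00722). Abcb1a, a multidrug efflux pump, had 3 reads in all of KO MPP2 and a ratio of group means of 0.0138 (95% counting interval 0.00282 to 0.0408, counting error only; adjusted p = 0.0339, and 0.107 without KO LT-HSC replicate 1).

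Mitosis and kinetochore genes lay in the other direction. Of 46 mitosis and kinetochore genes tested, all 46 had a log2 difference above 0, from 0.34 to 2.41 with a median of 1.20, against 41.8% of all genes tested above 0. In 31 of the 46, or 67.4%, all KO MPP2 libraries exceeded all KO LT-HSC libraries, against 6.79% of all genes. Single genes rarely passed, with 2 of the 46 called. The list summed to 108415, 134487 and 122608 scaled reads in KO MPP2, against 64535, 42033 and 60355 in KO LT-HSC. The 46 of 46 stood in each alternative fit run, including the fits that left out single libraries, while the number called ranged from 0 to 16.

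Top2a, which untangles DNA before mitosis, had 6952, 7995 and 10162 in KO MPP2, against 2773, 1900 and 4284 in KO LT-HSC. Its log2 difference was 1.55 ± 0.33 (SE, adjusted p = 0.0303, limma), and its adjusted p was 0.107 without KO LT-HSC replicate 1. Smc2, a core subunit of condensin, had 5421, 5433 and 6012 in KO MPP2, against 2880, 2276 and 3074 in KO LT-HSC (log2 difference 1.04, adjusted p = 0.0268, and 0.0951 without KO LT-HSC replicate 2). Cks1b, a partner of cyclin-dependent kinases, had 6033, 7784 and 6048 in KO MPP2, against 3019, 3154 and 3490 in KO LT-HSC (log2 difference 1.03, adjusted p = 0.0246, and 0.107 without KO LT-HSC replicate 1). In these 3 genes every KO MPP2 library lay above every KO LT-HSC library. Knstrn, a spindle protein, had 1644, 1823 and 2097 in KO MPP2, against 917, 452 and 620 in KO LT-HSC (log2 difference 1.54, adjusted p = 0.0419, and 0.128 without KO LT-HSC replicate 2). The proliferation marker Mki67 had 2818, 3790 and 3724 in KO MPP2, against 1743, 1133 and 1599 in KO LT-HSC (log2 difference 1.22, adjusted p = 0.054). Hist1h1b, a linker histone made in S phase, was called among 54 histone genes, with 774, 827 and 731 in KO MPP2, against 125, 51.8 and 329 in KO LT-HSC (adjusted p = 0.0488, and 0.152 without KO LT-HSC replicate 2). Many histone genes are near-identical copies whose reads counting may split. Of 54 histone genes 50 lay above 0, with a median of 1.18. Of 45 DNA replication genes, 40 lay above 0 with a median of 0.39, and 0 passed.

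Promoters of the called genes Top2a, Smc2, Cks1b and Knstrn were searched for CCAAT boxes and the cell cycle genes homology region. Both are known elements of genes expressed late in the cell cycle. The 3 windows that held a match are shown. The 250 bases before the RefSeq start (GRCm38.p6) run on the gene's own strand, with capitals marking CCAAT and TTTGAA on either strand; overlapping matches merge. Top2a lies at chr11:99024190-99024439 on the minus strand, Smc2 at chr4:52438971-52439220 on the plus strand and Cks1b at chr3:89418292-89418541 on the minus strand.
Top2a: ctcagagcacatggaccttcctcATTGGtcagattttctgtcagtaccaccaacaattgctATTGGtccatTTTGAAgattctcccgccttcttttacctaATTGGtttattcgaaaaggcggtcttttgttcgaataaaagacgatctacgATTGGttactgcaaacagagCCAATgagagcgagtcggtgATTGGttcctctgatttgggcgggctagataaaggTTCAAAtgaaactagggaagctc
Smc2: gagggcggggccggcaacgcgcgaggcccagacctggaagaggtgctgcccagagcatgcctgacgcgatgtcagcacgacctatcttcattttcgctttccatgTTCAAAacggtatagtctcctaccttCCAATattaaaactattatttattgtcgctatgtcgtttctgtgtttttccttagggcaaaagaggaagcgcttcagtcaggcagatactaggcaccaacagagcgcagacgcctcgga
Cks1b: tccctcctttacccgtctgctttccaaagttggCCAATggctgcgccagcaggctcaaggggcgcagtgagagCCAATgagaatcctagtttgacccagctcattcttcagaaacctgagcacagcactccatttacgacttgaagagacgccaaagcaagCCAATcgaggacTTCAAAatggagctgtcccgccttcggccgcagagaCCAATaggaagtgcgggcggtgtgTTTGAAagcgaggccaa
The Top2a window held 6 CCAAT and 2 TTTGAA matches, the Smc2 window 1 and 1, and the Cks1b window 4 and 2. The Knstrn window held neither. Of the 46 mitosis and kinetochore genes, 37 had a window in the RefSeq table, and CCAAT occurred in 29 (78.4%) and TTTGAA in 12 (32.4%) of them. Among all 27025 windows of the same length, 34.5% held CCAAT and 16.3% held TTTGAA. These are letter matches and say nothing of binding in these cells.

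**Figure D4:**
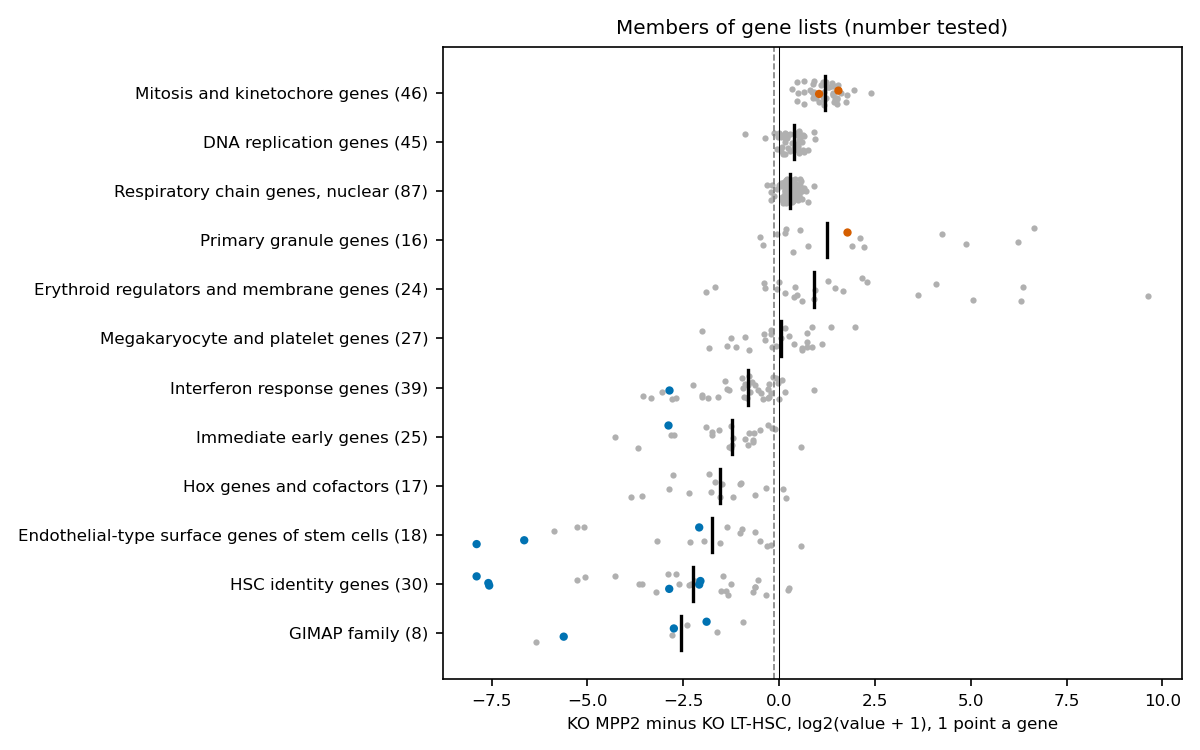
Log2 difference, KO MPP2 minus KO LT-HSC (horizontal axis), for each tested member of 12 gene lists, with the number tested in brackets, called genes in colour (orange higher, blue lower), list medians as black bars and the median of all genes, -0.13, as a dashed line. Mitosis and kinetochore genes all lie right of 0, with a median of 1.20, and 28 of 30 HSC identity genes lie left of it.

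Called genes outside the cell cycle lists included Gna14, Cd48, Nkg7, Adgrg3 and Clec4d. Gna14, a G protein alpha subunit that couples receptors to phospholipase C, had 352, 487 and 607 in KO MPP2, against 0, 20.2 and 0 in KO LT-HSC. Its log2 difference of 7.41 ± 1.10 (adjusted p = 0.0034, limma) was the highest among called genes, and its call held in 16 of 16 fits with a library left out; the edgeR adjusted p was 0.103. Cd48, a SLAM-family surface receptor commonly used to separate progenitors from LT-HSC in sorting, had 1643, 2750 and 3750 in KO MPP2, against 476, 2.64 and 66.3 in KO LT-HSC (log2 difference 5.72, adjusted p = 0.0171, and 0.0561 without KO MPP2 replicate 3). The labels do not say whether CD48 was used in the sort; were it so, this difference would be set by the gate. KO LT-HSC varied widely in Cd48, from near absent to 476, while KO MPP2 stayed above. Nkg7, a granule membrane protein, had 6608, 11022 and 3885 in KO MPP2, against 1401, 1990 and 2571 in KO LT-HSC (log2 difference 1.77, adjusted p = 0.0157). Adgrg3, an adhesion G protein-coupled receptor, had 3217, 3278 and 1088 in KO MPP2, against 435, 507 and 939 in KO LT-HSC (log2 difference 1.93, adjusted p = 0.0204). Clec4d, a myeloid C-type lectin receptor, had 525, 1017 and 278 in KO MPP2, against 63.2, 115 and 132 in KO LT-HSC (log2 difference 2.41, adjusted p = 0.0419). KO LT-HSC replicate 1, the library with raised neutrophil transcripts, had the lowest KO LT-HSC value of all 3 genes. Without it the adjusted p of Nkg7, Adgrg3 and Clec4d was 0.0913, 0.107 and 0.167. With each library left out in turn, the log2 differences were at least 1.39 for Nkg7, 1.66 for Adgrg3 and 1.94 for Clec4d. The other called genes of the highest 15 were the importin gene Kpna2, the zinc-finger gene Zfp35, Tbccd1, Camta1 and Eipr1, with log2 differences of 0.94 to 2.17; their calls held in 2 (Kpna2) to 14 (Zfp35) of 16 fits with a library left out. All groups in this paragraph were apart in every library.

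Lineage genes that MPP2 are known for gave no call, and single libraries differed widely. Among all genes tested, 41.8% lay above 0. Of 27 megakaryocyte and platelet genes, 0 passed, with a median log2 difference of 0.06. Pf4, the platelet chemokine, had 55774, 46481 and 6536 in KO MPP2, against 2716, 13815 and 27023 in KO LT-HSC (adjusted p = 0.611), so the lowest KO MPP2 library lay below 2 of the KO LT-HSC libraries. Itga2b, the integrin CD41, had 9476, 7074 and 4055 in KO MPP2, against 3635, 4331 and 5050 in KO LT-HSC (adjusted p = 0.766). Of 24 erythroid regulators and membrane genes, 19 lay above 0 with a median of 0.92, and 0 passed. The summed level of this list was 65848, 115460 and 138017 in KO MPP2, against 62276, 97838 and 59797 in KO LT-HSC. The master erythroid factor Gata1 had 3215, 4259 and 3821 in KO MPP2, against 1454, 2011 and 1227 in KO LT-HSC (log2 difference 1.29 ± 1.71, adjusted p = 0.761). Gata1 was higher in each KO MPP2 library than in any KO LT-HSC library, but the spread over all 6 groups was large. Car1, a carbonic anhydrase of early red-cell progenitors, had 7323, 43829 and 65089 in KO MPP2, against 1.09, 19947 and 0 in KO LT-HSC (adjusted p = 0.234). The myeloperoxidase gene Mpo had 1136, 15747 and 91.4 in KO MPP2, against 22.9, 67.6 and 0 in KO LT-HSC (adjusted p = 0.137), and the elastase gene Elane had 0, 3961 and 0 in KO MPP2, against 0, 38.6 and 0 in KO LT-HSC. Of 16 genes tested on the primary granule list, 13 lay above 0 and the median was 1.26. Nkg7, a granule membrane protein not particular to primary granules, was the only member called, and Mpo and Elane were not. Of 87 nuclear genes of the respiratory chain, 0 passed, 81 lay above 0 with a median of 0.30, and 38 (43.7%) did not overlap with KO MPP2 above, against 6.79% of all genes. Slc25a5, the mitochondrial ADP/ATP carrier, was called higher at 0.60 (adjusted p = 0.0284), named after its values were seen.

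The same MPP2 against LT-HSC difference was measured in the WT libraries, which share none with the KO comparison. Both differences came from 1 fit with a shared spread per gene. Genes of small spread were thus more readily called in both, and the calls are not independent. Of 17160 genes, 143 were called there (0.833%), 48 higher and 95 lower. Of the 186 genes lower in KO MPP2, 178 (95.7%) lay below 0 in WT MPP2 minus WT LT-HSC, against 54.6% of all genes tested. Of the 20 higher, 19 lay above 0, against 45.2% of all genes. Genes called lower in both numbered 39, which is 20.97% of the KO list and 41.1% of the WT list, and those called higher in both numbered 8, which is 40.0% and 16.7%. The WT calls depended on single libraries, with 41 to 267 called when 1 WT library was left out. Without WT MPP2 replicate 3, the library with the B cell transcripts, 267 were called, and 179 of the 186 lay below 0, 51 of them called, while 18 of the 20 lay above 0, 6 of them called. With the library labelled WT LT-HSC replicate 4 left out, 72 were called, and 177 of the 186 lay below 0, 24 of them called, while 19 of the 20 lay above 0, 5 of them called. The WT count was 50 and 47 without WT MPP2 replicates 1 and 2, and 66 and 41 without WT LT-HSC replicates 2 and 3. The median difference of the 186 genes was -4.96 in KO and -1.84 in WT; they were chosen for a low KO value, so these sizes cannot be set against each other. Procr had a log2 difference of -7.89 in KO and -7.34 in WT, and its WT MPP2 reads lay in replicate 3, at 182, with 0 in replicates 1 and 2. Sult1a1 had -7.56 in KO and -7.96 in WT, and Gna14 had 7.41 in KO and 7.34 in WT. Other genes had values farther apart, such as Rora with -6.90 in KO and -3.19 in WT, and Jam3 with -6.65 in KO and -3.55 in WT. Both were chosen for a low KO value too, so these gaps cannot be read as a difference between genotypes. The limma test of that difference, given next, called 0 genes.

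The test of whether the MPP2 minus LT-HSC difference itself depended on Hopx genotype called 0 genes by limma (0%), with 636 at an unadjusted p under 0.05. edgeR and voom also called 0, with 689 and 733 at an unadjusted p under 0.05, and DESeq2 called 41. Without KO MPP2 replicate 2, limma called 83. Without WT MPP2 replicate 3 it called 0, with 673 at an unadjusted p under 0.05, and with the library labelled WT LT-HSC replicate 4 left out it called 0, with 557. Ppargc1b, a coactivator of mitochondrial genes, had the smallest p. It had 11.4, 11.5 and 0 in KO MPP2, against 188, 156 and 173 in KO LT-HSC, while WT MPP2 had 161, 78.1 and 50.8, against 51.3, 71.2, 60.5 and 90.1 in WT LT-HSC (difference of differences -5.37, adjusted p = 1). The WT libraries overlapped for Ppargc1b where the KO groups were far apart. Sh3d21 had 0 reads in KO MPP2, against 82.8, 151 and 106 in KO LT-HSC, while WT MPP2 had up to 49.8, against 24.7 to 92.8 in WT LT-HSC. The limma adjusted p of its difference of effects was 1.

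**Figure D5:**
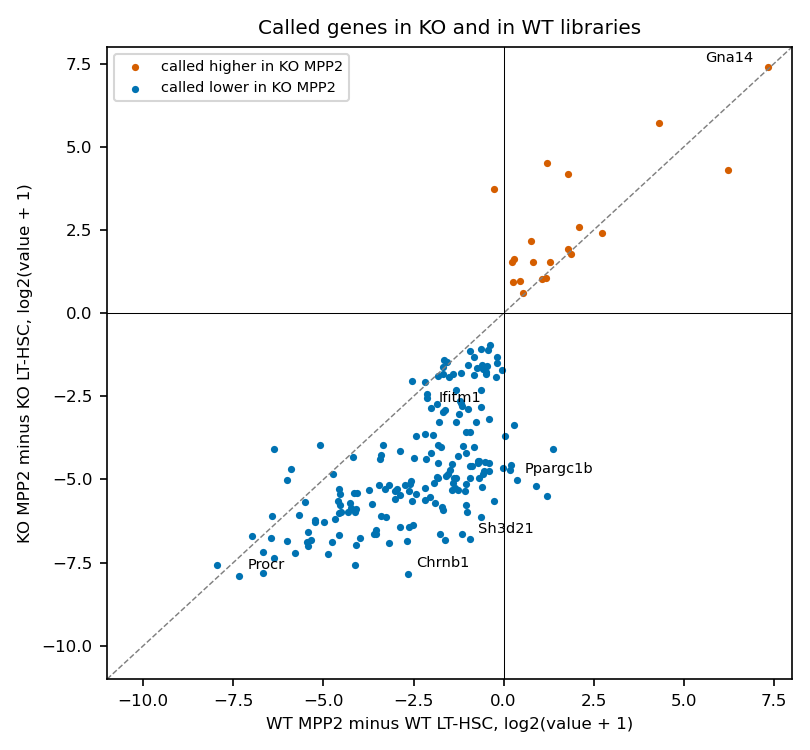
Log2 difference KO MPP2 minus KO LT-HSC (vertical axis) against WT MPP2 minus WT LT-HSC (horizontal axis) for the 20 genes called higher (orange) and the 186 called lower (blue) in KO, with the line of equal differences dashed. Of the blue points 178 lie left of 0, and of the orange points 19 lie right of it.

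Against KO MPP3, the granulocyte- and macrophage-leaning progenitors, KO MPP2 was higher in 115 genes (0.67%) and lower in 363 (2.12%). Here 16 of 27 megakaryocyte and platelet genes were higher and 0 lower. Pf4 had 55774, 46481 and 6536 in KO MPP2, against 132, 40.6 and 42.7 in KO MPP3 (log2 difference 8.69, adjusted p = 0.00106, limma). Mmrn1, a platelet granule protein, had 1763, 1853 and 3356 in KO MPP2, against 157, 163 and 104 in KO MPP3 (adjusted p = 1.74e-05), and 4643, 5016 and 7787 in KO LT-HSC. Both genes were lower in every KO MPP3 library than in any KO MPP2 library. Slamf1 had 933, 590 and 446 in KO MPP2, against 32.5, 0 and 18.2 in KO MPP3 (adjusted p = 0.00705). Whether CD150, its product, was used in the sort is not given in the labels. Were it so, this difference would be set by the gate. The lymphoid cytokine receptor Flt3 was lower, with 268, 410 and 226 in KO MPP2, against 7392, 7354 and 6625 in KO MPP3 (adjusted p = 0.016). Procr, Ifitm1 and Nfkbiz were lower in KO MPP2 than in KO MPP3 too, at -6.75, -2.42 and -3.67 (adjusted p = 0.0165, 0.00286 and 0.00145), and these values share the KO MPP2 libraries with the comparison above. Of 46 mitosis and kinetochore genes, 2 were higher than in KO MPP3. The total of 478 was 128, 109 and 113 without KO MPP3 replicates 1, 2 and 3, 248 and 244 without KO MPP2 replicates 1 and 3, and 1154 without KO MPP2 replicate 2.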

How the data were processed

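RNA was sequenced from sorted mouse bone-marrow cells with Nextera XT libraries, per the labels' protocols. Per the submitters' processing notes, the authors used TopHat2 2.1.1, HTSeq 0.11.2, DESeq and build GRCm38; annotation release and strand setting: not given in the sources used here. The deposited values are a normalized signal, reads divided by 1 size factor per library, called scaled reads in the text. All were whole multiples of 1 read within 0.000001, so whole reads were recovered. The 5 HTSeq summary entries, which left 18.5% to 21.4% of entries in genes over the 6 libraries, stayed out of totals and tests. Symbols from GENCODE M21 matched 45143 of 45706 identifiers.

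Genes passing edgeR's expression filter were tested with limma 3.58.1 (R 4.3.3, trend, robust) on log2(value + 1), with 6 group means over 20 libraries and Benjamini-Hochberg adjustment over all 17160 genes. The added 1 shrinks differences of low genes, and where libraries of a group lie at 0 a difference of mean logs can exceed the ratio of means. The scaled values made limma the main test; edgeR 4.0.16 and DESeq2 1.42.0 on recovered reads, other filters, pseudocounts, scaling, covariates and library choices were alternatives. Scripts were tested on simulated data. Bounds use 3 reads over a group, and bounds and intervals cover counting error only.

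Named genes were Hopx, the 15 highest and lowest differences among called protein-coding genes with a mean value of at least 50 and no overlap, the called members of each of 53 gene lists (up to 6, or the 2 of smallest p), a set list of lineage genes, and the 8 of smallest p in the other comparisons (5 where none was called). The groups, lists and genes were chosen with earlier results of these data known. Replicate numbers follow accession order. Some genes that this rule names are not reported here.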

Additional observations from a re-analysis of the deposited data

How the results depend on the processing

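No called named gene changed sign in any of the 34 alternatives. Groups did not overlap for 20 of the 20 and 185 of the 186 called genes. Leaving out libraries could therefore hardly turn a sign, and the steady signs were largely fixed by the calls. The median log2 difference of all genes ran from -0.19 to 0.04 over the fits. Genes called higher and lower in KO MPP2 (20 and 186) numbered 12 and 119 with no filter beyond 1 read in any library, 15 and 102 with a mean value of at least 50, 3 and 5 with at least 500, 0 and 5 by edgeR, 1 and 16 by edgeR on 18 libraries, 176 and 509 by DESeq2, 11 and 110 by voom, 76 and 287 with the run of library numbers as covariate, 45 and 231 with sex, 62 and 248 without libraries 52 to 54, 0 and 0 with the 6 libraries alone (563 and 1040 at an unadjusted p under 0.05), 11 and 66 with the 9 KO libraries alone, and 12 and 65 with libraries 101 to 106 and 115 to 120 alone. With KO MPP2 replicate 2 as the single KO MPP2 library they numbered 6 and 5, and with KO LT-HSC replicate 3 as the single KO LT-HSC library 5 and 38; there the lone library is assumed to vary like the other groups. Leaving out 1 library of KO MPP2, KO LT-HSC, KO MPP3, WT MPP2 or WT LT-HSC gave 3 to 67 higher and 51 to 796 lower. TMM scaling gave 20 and 192. The share of calls that were lower was 90.3%, and 74.3% by DESeq2, 79.1% with the run covariate, 80.0% without libraries 52 to 54, 62.5% with a mean value of at least 500 and 45.5% with KO MPP2 replicate 2 as the single KO MPP2 library.

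The difference of effects between KO and WT had 0 calls except 41 by DESeq2, 2 with KO LT-HSC replicate 3 as the single KO LT-HSC library, and 0 to 83 with 1 library left out. KO MPP2 against KO MPP3 (478) gave 197 by edgeR, 186 by edgeR on 18 libraries, 885 by DESeq2, 790 with the run covariate, 314 with the KO libraries alone, 125 with libraries 101 to 106 and 115 to 120 alone, 262 with a mean value of at least 500, 31 with KO MPP2 replicate 2 as the single KO MPP2 library, and 109 to 1154 with 1 library left out. Where fewer libraries or genes entered, that follows in part from the construction; otherwise the cause was not tested. The fits on 18 libraries, at 500 and with a single library were chosen after seeing the data. No paired analysis was run, because the labels do not say which libraries belong together. KO LT-HSC libraries 101 and 104 and KO MPP2 library 103 were all female by transcripts, and KO MPP2 library 119 and KO LT-HSC library 120 both male. Sex thus does not single out a partner for library 103. A matching that the labels leave unstated may still exist, and the main test ignored it. The run of library numbers, whose meaning the labels do not state, entered as a covariate instead, with 13 mitosis and 11 HSC identity genes called. Values under 50, and in KO MPP2 replicates 1 and 3 also those of 50 to 200, held many zeros at a like depth.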

Other observations

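Protein quality control, translation and other growth genes showed small, even differences without calls. Of 41 proteasome subunit genes 35 lay above 0 in KO MPP2 minus KO LT-HSC, with a median log2 difference of 0.19 and 0 called, and of 77 mitochondrial ribosomal protein genes 60 lay above 0 with a median of 0.19 and 0 called. Chaperone and heat shock genes lay above 0 in 25 of 30, with a median of 0.19 and 0 called. Cytosolic ribosomal protein genes were split, with 38 of 78 above 0 and a median of -0.01. Ribosome biogenesis genes lay above 0 in 26 of 32, with a median of 0.30. Lysosome and autophagy genes lay below 0 in 27 of 33, with a median of -0.24 and 0 called. Of 18 imprinted genes 16 lay below 0, with a median of -1.75 and 1 called. Among all genes tested, 41.8% lay above 0 and 57.2% below.

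Macrophage genes were at low values in both groups. Mpeg1, the pore-forming perforin-2 of phagocytes, had 12.4, 27.5 and 18.7 scaled reads in KO MPP2, against 0 in each KO LT-HSC library, and was called (adjusted p = 0.0257, limma); it was named after its values were seen. The 21 monocyte and macrophage genes summed to 1814, 2976 and 2037 in KO MPP2, against 1390, 552 and 1075 in KO LT-HSC, with 0 called.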
